A study of Mus musculus with 20 samples.

Results

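The 10 genes described here are transcript readouts of FGF and ERK signaling, 8 feedback inhibitors of the pathway and 2 of its target transcription factors. They were taken by symbol, as Dusp4, Dusp5, Dusp6, Spry1, Spry2, Spry4, Spred1, Spred2, Etv4 and Etv5. All 10 were found among the 55573 genes of the deposited table, and all 10 passed the filter on low counts. The libraries came from embryoid body (EB) cultures of mouse induced pluripotent stem cells (iPSCs), and each gene was followed over differentiation in wild type (WT) cells and in cells without Nox4, an NADPH oxidase that makes reactive oxygen species.

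Fibroblast growth factors bind receptor tyrosine kinases, which act through Ras, Raf and MEK on the kinase ERK. Active ERK switches on genes that shut the pathway down again, so the level of their transcripts is often read as a sign of recent signaling. Dual-specificity phosphatases of the Dusp family remove the activating phosphates from ERK and related kinases, and Sprouty and Spred proteins act upstream at the level of Ras and Raf. Etv4 and Etv5 are ETS transcription factors of the PEA3 group that carry FGF signals to their target genes. In pluripotent mouse cells, Fgf4 acting through ERK prepares cells to leave the naive state. The study also probed phosphorylated ERK by immunoblot and reported more of it in WT than in Nox4-/- cells. The transcripts were not compared with those blots here.

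Each of 4 iPSC lines gave 1 library on each of days 0, 3, 5, 7 and 14, which makes 20 libraries. The WT lines were WT#1-4 and WT#20D-17, and the lines with the Nox4 knockout were Nox4-/- #5-8 and Nox4-/- #5-23. In the study's methods, iPSC lines were clones picked after fibroblasts from mouse embryos had received retroviral Oct4, Sox2, Klf4 and c-Myc with puromycin selection. They were kept on fibroblast feeder cells with LIF, and were aggregated in hanging drops without LIF before plating on gelatin. The study describes 3 of the lines and not WT#20D-17, and the protocol text of the labels lists day 10 where their titles give day 14, which is used here. No line has a second library on any day, so the days of a line were the only repeats within it.

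The lines did not start from the same state, and the values below carry that difference. In the 15 libraries of WT#1-4 and the Nox4-/- lines, Zfp42 had 0 counts, Esrrb at most 5 counts and Nanog at most 27 counts, although these are defining transcripts of mouse pluripotent cells. Pou5f1 (Oct4) ran between 1278 and 5760.05 CPM (counts per 1000000 counts of the library, scaled with TMM factors) in those libraries, where reads of the viral and the cellular gene cannot be told apart, and the same holds for Sox2 and Myc. In WT#20D-17, all 8 pluripotency markers examined were above the floor of 3 counts in every library, and their summed level went from 3758 CPM on day 0 to 97.2 CPM on day 14. Markers of differentiated cells also went up in WT#20D-17 and not to that extent in the other lines, as given beside the results they touch. Nox4 had between 3 and 22 counts in WT#1-4, between 56 and 203 in WT#20D-17 and at most 2 in any Nox4-/- library. Library totals lay between 20294935 and 27707994 counts, so that 3 counts correspond to 0.109 to 0.157 CPM.

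Levels are given in the same CPM, always in the order of days 0, 3, 5, 7 and 14. To compare genes with each other, CPM was divided by the exon length in kb. On that scale Etv5 had the highest median over the 20 libraries, 105 CPM per kb, and Dusp4 came next with 43.9 CPM per kb. Etv4 (29.2), Dusp6 (22.0), Spred2 (21.9), Spry2 (15.9), Spred1 (11.7) and Spry4 (11.3 CPM per kb) lay in between, and Spry1 (5.18) and Dusp5 (3.16 CPM per kb) were lowest. The ranges over libraries of neighbouring genes in this order overlapped throughout. Etv5 overlapped with Dusp4 because of WT#20D-17, in which its lowest library had 9.80 CPM per kb. As a ratio of the highest to the lowest library, Dusp5 varied most, from 1.2 to 59.9 CPM, and Spred1 least, from 27.0 to 102 CPM.

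**Figure D1:**
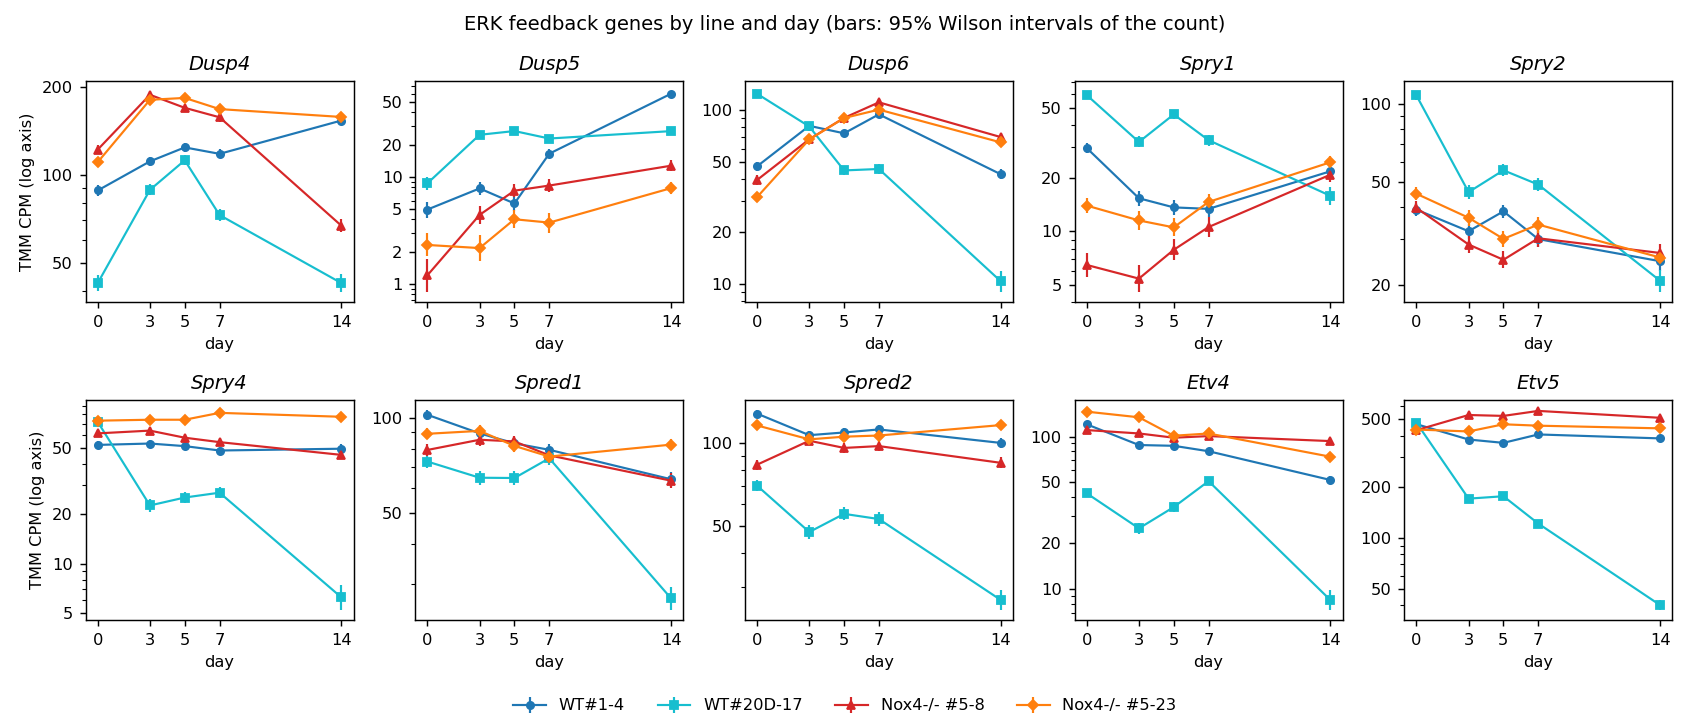
Level of each of the 10 genes (CPM, log axis) against day of EB culture, with 1 point per library and 1 line per iPSC line. Etv5, Spry4, Dusp6 and Etv4 drop steeply in WT#20D-17 by day 14, to 40.2, 6.25, 10.3 and 8.45 CPM, while Dusp5 is higher on day 14 than on day 0 in each of the 4 lines.

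Dusp5 (ENSMUSG00000034765) encodes a nuclear phosphatase specific for ERK. The gene lies on chromosome 19 of GRCm38 from 53529109 to 53542431, on the plus strand. It belongs to a MAPK pathway list that the study picked from these same samples, so its values are not independent evidence of that list's direction. Sequence upstream of the gene is shown because Dusp5 was the only one of the 10 genes with higher values on day 14 than on day 0 in every line. It covers chr19:53528895-53529108 on the plus strand of GRCm38.p6 (RefSeq), with GGAA or its complement TTCC, the core letters of ETS sites, in capitals together with 2 CArG boxes, the sites of serum response factor.
Dusp5: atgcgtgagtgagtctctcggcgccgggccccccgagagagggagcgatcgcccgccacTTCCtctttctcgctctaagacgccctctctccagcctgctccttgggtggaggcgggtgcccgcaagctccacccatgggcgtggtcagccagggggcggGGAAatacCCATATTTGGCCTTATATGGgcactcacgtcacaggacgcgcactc
The printed run is the first 214 of the 250 bases before the RefSeq start site. It ends where the first exon of GENCODE begins, and it holds 2 of the 3 ETS cores of the window. Counted from the RefSeq start site, which lies downstream of the printed end, the CArG boxes lie end to end at positions -82 to -73 and -72 to -63. Among 32851 mouse promoter windows of 250 bases, 1.47% hold a CArG box on either strand. Dusp5 was the 1 gene with any among the 7 whose RefSeq windows were searched. This motif was picked after the sequence had been seen.

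In WT#1-4, Dusp5 measured 4.94, 7.79, 5.63, 16.5 and 59.9 CPM. The values in WT#20D-17 were 8.69, 24.7, 26.8, 22.8 and 26.8 CPM. The first WT line was thus highest at the end, whereas the second had reached its level by day 3. Nox4-/- #5-8 went from 1.2 through 4.41, 7.42 and 8.28 to 12.7 CPM, and Nox4-/- #5-23 gave 2.30, 2.15, 4.01, 3.73 and 7.84 CPM. Both Nox4-/- lines lay below both WT lines on days 0, 3, 7 and 14, and on day 5 Nox4-/- #5-8 was above WT#1-4. The lowest library held 30 counts, with a 95% Wilson interval from 0.839 to 1.71 CPM, and the highest 1209 counts, with an interval from 56.7 to 63.4 CPM. These intervals cover counting error only. An antisense gene that overlaps Dusp5 had at most 8 counts in any library.

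Dusp6 (ENSMUSG00000019960) encodes a cytoplasmic phosphatase specific for ERK and is among the usual readouts of FGF signaling. It lies on chromosome 10 from 99263231 to 99267489, plus strand. The 250 bases before its start site, chr10:99262981-99263230 on the plus strand of GRCm38.p6 (RefSeq), are given with the ETS core letters GGAA or TTCC in capitals, because Dusp6 and Etv5 were both about equally lower on day 14 in WT#20D-17.
Dusp6: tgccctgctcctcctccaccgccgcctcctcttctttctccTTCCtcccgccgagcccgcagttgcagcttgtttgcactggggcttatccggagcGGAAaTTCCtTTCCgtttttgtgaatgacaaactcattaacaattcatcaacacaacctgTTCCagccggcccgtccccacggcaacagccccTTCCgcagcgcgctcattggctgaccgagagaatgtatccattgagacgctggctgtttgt
The window holds 6 such cores. In WT#1-4, Dusp6 measured 47.5, 81.2, 73.6, 94.6 and 42.7 CPM, and in WT#20D-17 it measured 124, 80.5, 45.0, 45.9 and 10.3 CPM. WT#20D-17 had the highest value of any line on day 0 and the lowest from day 5 on. In Nox4-/- #5-8 the values were 39.6, 68.0, 90.3, 111 and 70.0 CPM, and in Nox4-/- #5-23 they were 31.6, 67.8, 90.1, 101 and 65.2 CPM. These 2 lines ran close to each other and to WT#1-4 through day 7, with a maximum on day 7 in all 3.

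Dusp4 (ENSMUSG00000031530; chromosome 8, 34807297 to 34819894, plus strand) encodes a nuclear phosphatase of ERK and related kinases. It measured 88.6, 111, 124, 118 and 154 CPM in WT#1-4, and 42.7, 89.0, 112, 73.0 and 42.7 CPM in WT#20D-17. In Nox4-/- #5-8 it measured 122, 188, 170, 158 and 67.1 CPM, and in Nox4-/- #5-23 111, 181, 184, 168 and 158 CPM. Both Nox4-/- lines were above both WT lines on days 0, 3, 5 and 7. On day 14 the groups overlapped, since each genotype had 1 line at a high level (154 and 158 CPM) and 1 line far below it (42.7 and 67.1 CPM).

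The Sprouty genes encode membrane-associated inhibitors of receptor tyrosine kinase signaling. Spry1 (ENSMUSG00000037211; chromosome 3, 37639947 to 37644598, plus strand) measured 29.7, 15.4, 13.7, 13.4 and 21.9 CPM in WT#1-4 and 59.1, 32.1, 45.9, 32.8 and 15.9 CPM in WT#20D-17. In Nox4-/- #5-8 it measured 6.47, 5.41, 7.88, 10.6 and 21.0 CPM, and in Nox4-/- #5-23 14.01, 11.5, 10.5, 14.7 and 24.6 CPM. Both Nox4-/- lines were below both WT lines on days 0, 3 and 5, and by day 14 all 4 lines lay between 15.9 and 24.6 CPM. A gene of unknown type on the opposite strand, at most 24 counts in a library, overlaps Spry1.

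Spry2 (ENSMUSG00000022114; chromosome 14, 105891947 to 105896819, minus strand) was alike in 3 of the lines. It measured 39.1, 32.3, 38.5, 30.1 and 24.7 CPM in WT#1-4. The Nox4-/- values were 39.8, 28.7, 25.0, 30.3 and 26.6 CPM in Nox4-/- #5-8 and 45.1, 36.4, 30.1, 34.2 and 25.5 CPM in Nox4-/- #5-23. In WT#20D-17 it began at 108 CPM and went through 45.7, 55.6 and 48.9 to 20.7 CPM, so this line was above the other 3 until day 7 and below them on day 14. Genes of chromosome 14 as a whole were higher in WT#20D-17 than in WT#1-4, with a median log2 difference of 0.46 over 392 genes, and the part of this in the Spry2 values was not tested.

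Spry4 (ENSMUSG00000024427; chromosome 18, 38586247 to 38601415, minus strand) stayed nearly level in 3 lines. It measured 52.2, 53.2, 51.4, 48.3 and 49.5 CPM in WT#1-4, 61.3, 63.7, 57.7, 54.3 and 45.4 CPM in Nox4-/- #5-8, and 73.2, 74.1, 74.1, 81.6 and 77.3 CPM in Nox4-/- #5-23. In WT#20D-17 it was 72.0 CPM on day 0, then 22.5, 25.1 and 26.9 CPM, and 6.25 CPM on day 14. The day 3 value was already below every value of the other lines.

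The Spred proteins are relatives of Sprouty that recruit the Ras GTPase activating protein neurofibromin to the membrane. Spred1 (ENSMUSG00000027351; chromosome 2, 117121374 to 117182279, plus strand) measured 102, 89.3, 83.0, 79.3 and 64.0 CPM in WT#1-4 and 72.8, 64.7, 64.6, 74.5 and 27.0 CPM in WT#20D-17. In Nox4-/- #5-8 it measured 79.2, 85.2, 84.2, 76.1 and 63.3 CPM, and in Nox4-/- #5-23 89.0, 90.9, 81.5, 75.5 and 82.3 CPM. Apart from the last library of WT#20D-17, all values lay between 63.3 and 102 CPM.

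Spred2 (ENSMUSG00000045671; chromosome 11, 19924375 to 20024026, plus strand) measured 128, 107, 110, 112 and 100 CPM in WT#1-4, a mean of 111 ± 10.3 (SD over 5 days). The Nox4-/- lines gave 83.6, 102, 96.2, 97.7 and 85.0 CPM (Nox4-/- #5-8) and 116, 103, 106, 107 and 116 CPM (Nox4-/- #5-23). These 3 lines lay between 83.6 and 128 CPM. WT#20D-17 was lower than all of them on every day, with 70.2, 47.6, 55.4, 53.1 and 27.0 CPM, a mean of 50.7 ± 15.7 (SD over 5 days).

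Etv4 (ENSMUSG00000017724; chromosome 11, 101769742 to 101785371, minus strand) measured 120, 87.9, 86.9, 80.1 and 51.9 CPM in WT#1-4. In WT#20D-17 it measured 42.4, 25.0, 34.4, 51.0 and 8.45 CPM. The second WT line was below the first throughout. The Nox4-/- lines gave 110, 105, 98.2, 101 and 93.3 CPM (Nox4-/- #5-8) and 146, 134, 101, 105 and 73.7 CPM (Nox4-/- #5-23), above both WT lines on days 3, 5, 7 and 14.

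Etv5 (ENSMUSG00000013089; chromosome 16, 22381309 to 22439719, minus strand) was the most abundant of the 10 per length. Of its 2 RefSeq windows, the one at chr16:22438369-22438618 on the minus strand of GRCm38.p6 is shown, with ETS core letters in capitals, because Etv5 had one of the largest day 14 differences among these genes within a line.
Etv5: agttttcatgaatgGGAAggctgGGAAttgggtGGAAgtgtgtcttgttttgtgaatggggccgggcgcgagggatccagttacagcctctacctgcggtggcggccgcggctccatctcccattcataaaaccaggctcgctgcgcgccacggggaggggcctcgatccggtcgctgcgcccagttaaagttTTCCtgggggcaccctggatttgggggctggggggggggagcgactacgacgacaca
The shown window holds 4 cores and lies inside the span of the gene. The other window, chr16:22439571-22439820, overlaps the annotated start of the gene and holds none. The core alone is common, in 93.4% of all windows. The longer ETS site CCGGAAGT (2.88% of windows), the CRE TGACGTCA (1.55%), the AP-1 site TGANTCA (6.75%) and the TATA letters TATAAA (12.4%), searched on both strands, were in none of the 8 member windows searched. These windows belonged to 7 genes, Dusp5, Dusp6, Spry1, Spry2, Spred1, Spred2 and Etv5. Etv5 measured 468, 380, 363, 407 and 385 CPM in WT#1-4, 431, 529, 523, 560 and 510 CPM in Nox4-/- #5-8 and 435, 424, 467, 458 and 442 CPM in Nox4-/- #5-23. In WT#20D-17 it began at 478 CPM, the highest day 0 value, and went through 170, 176 and 121 to 40.2 CPM. On day 0 the 4 lines lay between 431 and 478 CPM, and from day 3 on WT#20D-17 was below all others by more than the spread among them.

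The first comparison asked which of the genes changed over the days of differentiation. Dusp5 rose and Spry2 and Etv4 fell from day 0 to day 14, and the direction was shared by all 4 lines for each of the 3. Dusp5 was higher by 2.68 ± 0.46 log2 units (SE, FDR of 0.000249 from edgeR's quasi-likelihood test with the line as a block), with single lines between 3.08-fold and 12.1-fold. Spry2 was lower by 1.10 log2 units (log2 change -1.10 ± 0.229, FDR 0.00123 from edgeR), and Etv4 had a log2 change of -1.08 ± 0.277 (FDR 0.00534 from edgeR). That is 3 of 10 genes, beside 26.7% of all 19240 genes tested at an FDR under 0.01 (13.6% higher and 13% lower). Spred1 was also lower in each of the 4 lines, at -0.59 ± 0.186, and did not pass (edgeR FDR 0.0187).

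Over any of the days, Dusp5 alone passed (edgeR FDR 0.00267), and 16.4% of all genes did. No member passed on day 3, 5 or 7 against day 0, when 0.161%, 2.29% and 10.8% of all genes passed. The largest early estimates were those of Dusp5, 0.93 ± 0.441, 1.3 ± 0.443 and 1.54 ± 0.444 log2 units, and the edgeR FDR on day 7 was 0.0196. P-values in these fits measure the spread of the libraries within lines, since no line was cultured again. The call for Dusp5 on day 14 held when each line was left out in turn, with log2 changes from 2.17 to 3.00. Without Nox4-/- #5-23 it was the 1 remaining call on day 14, and the any-day call was lost without WT#1-4, Nox4-/- #5-8 or Nox4-/- #5-23, and without the line as a block. Leaving out WT#20D-17 gave any-day calls for Dusp5 and Dusp6.

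The low values on day 14 were mainly those of WT#20D-17. In that line 8 of the 10 genes were at least 2-fold lower on day 14 than on day 0, beside 24.2% of all genes. In WT#1-4 this held for Etv4 alone (23.8% of all genes). It held for none of the 10 in either Nox4-/- line, where 20.4% (#5-8) and 17.3% (#5-23) of all genes were that much lower. The median log2 ratio over the 10 genes was -2.11 in WT#20D-17, -0.32 in WT#1-4, -0.11 in Nox4-/- #5-8 and 0.05 in Nox4-/- #5-23, and over all genes it was between -0.03 and 0.04. These ratios rest on 1 library per day and have no replicate check.

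Within WT#20D-17, Dusp6 was 12.0-fold lower on day 14, Etv5 11.9-fold, from 478 (95% Wilson interval 469 to 487) to 40.2 CPM (37.5 to 43.1), and Spry4 11.5-fold, from 72.0 (68.7 to 75.5) to 6.25 CPM (5.22 to 7.47). Spry2 (5.23-fold), Etv4 (5.02-fold) and Spry1 (3.72-fold) came next, and Spred1 (2.70-fold) and Spred2 (2.6-fold) were lowered least. Dusp4 was at 42.7 CPM at both ends, and Dusp5 was 3.08-fold higher. WT#20D-17 was the lowest of the 4 lines for 4 genes on day 0, for 6 on day 3, for 7 on days 5 and 7, and for 9 on day 14.

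**Figure D2:**
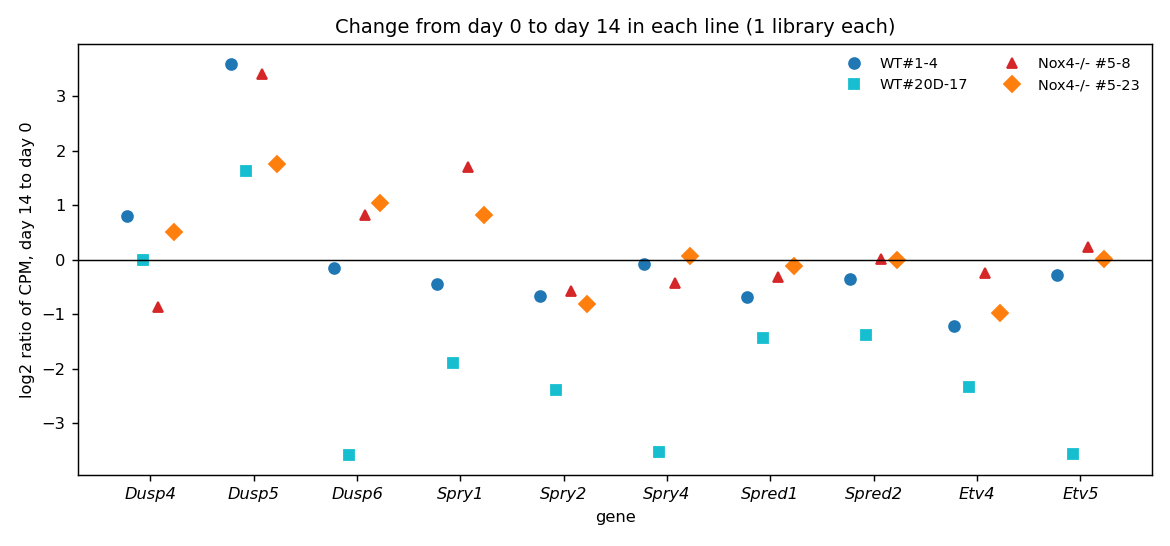
Log2 ratio of day 14 to day 0 for each of the 10 genes, 1 point per iPSC line, from CPM of 1 library each. WT#20D-17 lies lowest for 9 genes, all but Dusp4, down to -3.59 for Dusp6, and all 4 lines lie above 0 for Dusp5.

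The drop went along with markers of cell state in the same line. The summed CPM of 8 pluripotency markers went from 3758 to 97.2 in WT#20D-17, against 5800 to 1287 in WT#1-4, 3239 to 1976 in Nox4-/- #5-8 and 4596 to 3816 in Nox4-/- #5-23. In the lines other than WT#20D-17, Pou5f1, whose viral and cellular reads cannot be told apart, made up nearly all of the sum. Over the same days 8 fibroblast markers went from 26.8 to 3063 CPM in WT#20D-17 and stayed at or under 248 CPM in all other libraries. The 7 endoderm markers reached 2578 CPM and the 7 mesoderm markers 1086 CPM in WT#20D-17, and they stayed at or under 130 and 53.6 CPM elsewhere. Neuroectoderm markers (7 genes) summed to between 42.1 and 105 CPM in WT#20D-17 and to between 154 and 542 CPM elsewhere. The part of these cell states in the values of the 10 genes was not tested, and fewer cells of a type and less RNA per cell cannot be told apart in bulk libraries.

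**Figure D3:**
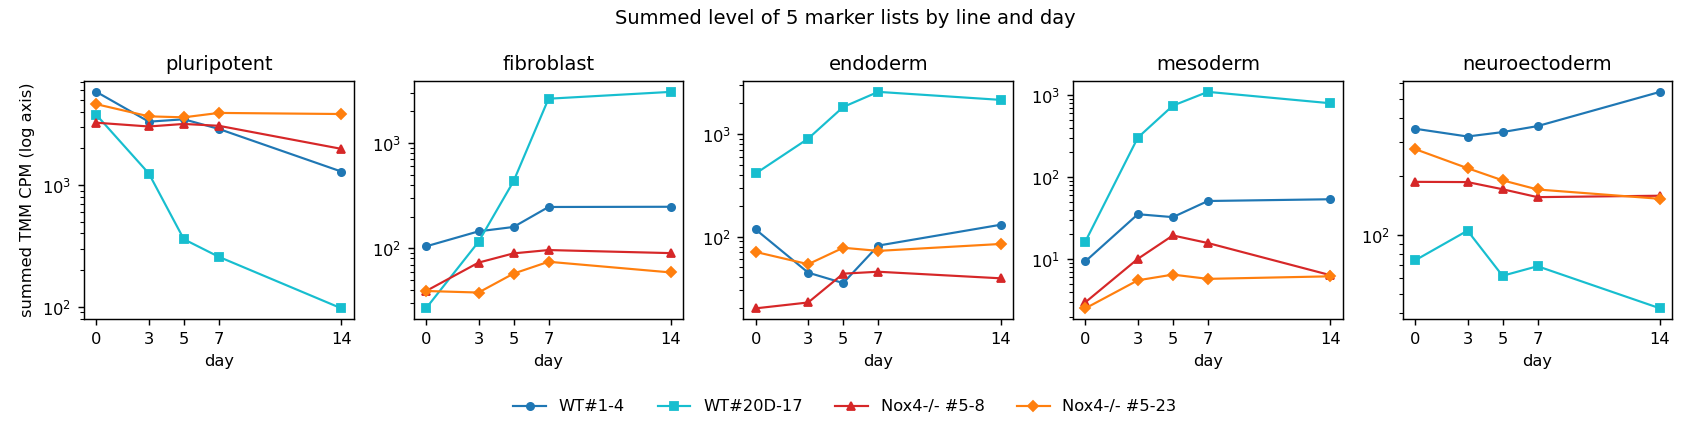
Summed CPM (log axis) of the marker lists for pluripotent cells, fibroblasts, endoderm, mesoderm and neuroectoderm against day, 1 point per library and 1 line per iPSC line. In WT#20D-17 the pluripotency sum falls to 97.2 CPM while the fibroblast sum reaches 3063 CPM. From day 0 to day 14 the other lines move the same way to a smaller extent. In WT#1-4 these sums go from 5800 to 1287 and from 104 to 248 CPM.

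The second comparison asked how the 10 genes differed by genotype. In the comparison that takes its test and gene filter from the study's methods, the 5 libraries of WT#1-4 against the 10 Nox4-/- libraries with days pooled, none of the 10 genes passed an FDR of 0.01 in edgeR's exact test, and 5.62% of 33860 genes did. The methods of the study set the stricter FDR of 0.001, where a figure legend gives 0.01, and none of the 10 passed at 0.001 either. The study lists Dusp5 among the genes it selected with edgeR and EBSeq-HMM together, and it reported more genes called by edgeR. Its call of Dusp5 was thus not reproduced in this run. By an unadjusted p under 0.05, 16.8% of all genes passed. Dusp5 came closest, with a log2 difference of -1.81 in the Nox4-/- lines (edgeR FDR 0.0181). For the other 9 genes the differences lay between -0.57 (Spry1) and 0.38 (Spry4), with edgeR FDR values of at least 0.209. The quasi-likelihood test with the day as a block called Dusp5, at -1.42 ± 0.278 (edgeR FDR 0.000222). Without day 14, when WT#1-4 had 59.9 CPM, the exact test gave -1.05 for Dusp5 (edgeR FDR 0.209).

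When the single lines were set beside WT#1-4 in the fit with day and line, the log2 difference of Dusp5 was -1.24 ± 0.394 in Nox4-/- #5-8 (edgeR FDR 0.0414) and -1.82 ± 0.402 in Nox4-/- #5-23 (edgeR FDR 0.00396). It was the 1 member called in the second of these, beside 10.9% of all genes, and the first called none, beside 7.67%. Beside WT#20D-17, 7 members were called for Nox4-/- #5-8 (43.6% of all genes) and 8 for Nox4-/- #5-23 (44.6%). Dusp4, Spred2, Etv4 and Etv5 were higher and Dusp5 and Spry1 lower in both, Spry2 was called lower in #5-8 alone, and Spry4 and Spred1 were called higher in #5-23 alone. Comparisons with the same control line are not independent of each other.

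With all 4 lines in the fit, 7 of the 10 genes passed within days, beside 36.5% of all genes, 5 of them higher in the Nox4-/- lines (17.3% of all genes) and 2 lower (19.2%). Etv4 (log2 difference 1.12 ± 0.176), Etv5 (0.90 ± 0.253), Spry4 (0.85 ± 0.235), Dusp4 (0.72 ± 0.164) and Spred2 (0.47 ± 0.115) were higher in the Nox4-/- lines, with edgeR FDR values between 5.91e-05 and 0.00719. Dusp5 (-1.87 ± 0.28, edgeR FDR 3.77e-05) and Spry1 (-1.13 ± 0.253, edgeR FDR 0.00145) were lower. Dusp6, Spry2 and Spred1 did not pass. Without WT#20D-17, Dusp5 was the 1 gene still called, at -1.47 (edgeR FDR 0.00260), and the Spred2 difference turned to -0.15 (edgeR FDR 0.269). Without Nox4-/- #5-23 the calls were Dusp5 and Etv4, and without Nox4-/- #5-8 they were Dusp4, Dusp5, Spred2 and Etv4.

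The WT lines also differed from each other. In WT#20D-17 against WT#1-4, Etv4 (-1.53 ± 0.251), Etv5 (-1.26 ± 0.362), Spred2 (-1.22 ± 0.164) and Dusp4 (-0.89 ± 0.235) passed, all lower, with edgeR FDR values from 1.16e-05 to 0.0078. That is 4 of 10, beside 39.2% of all genes, of which 18.7% were lower. Dusp5 differed by 0.68 ± 0.392 between them, which did not pass (edgeR FDR 0.16). Between the Nox4-/- lines no member passed, with differences from -0.58 (Dusp5) to 0.62 (Spry1), beside 3.32% of all genes.

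With the line as the unit, 2 sums against 2, no gene of 20229 passed in edgeR's quasi-likelihood test, while 1628 genes had an unadjusted p under 0.05 and DESeq2 called 717. The share called by edgeR was 0%. Dusp5 had a log2 difference of -1.82 ± 0.428 (edgeR FDR 0.604). DESeq2 gave -1.85 for the same gene (FDR 0.00392), the 1 member it called.

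**Figure D4:**
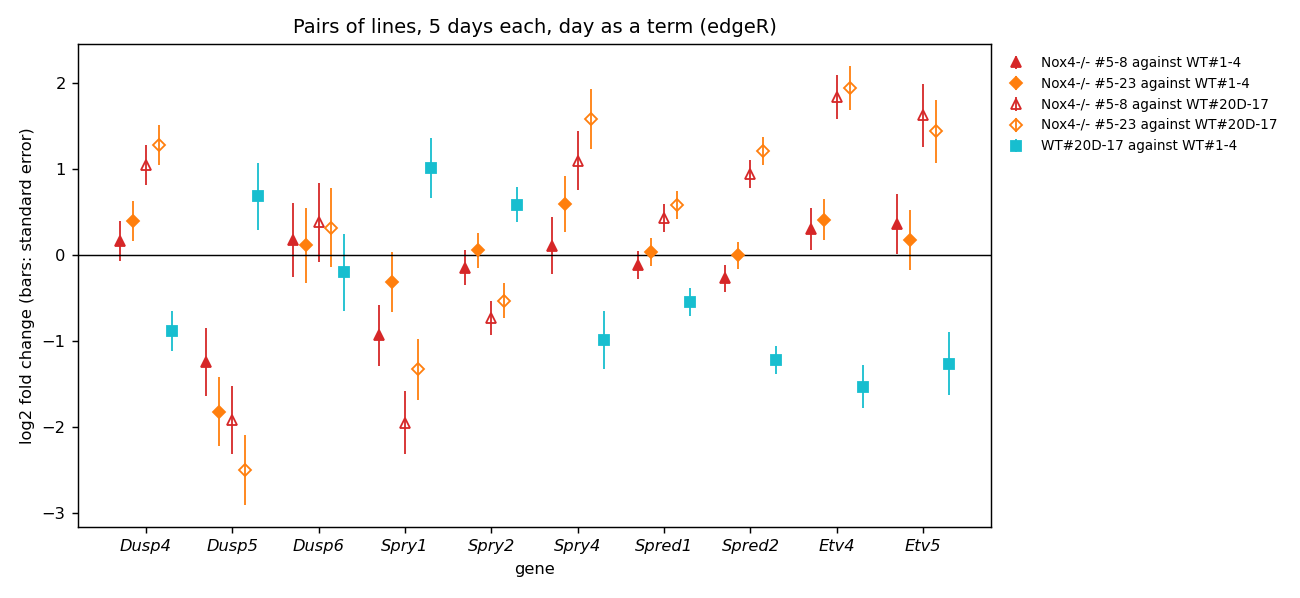
Log2 difference of each of the 10 genes between pairs of lines in the edgeR fit with day and line, with bars for the SE. Filled and open triangles and diamonds are the Nox4-/- lines against WT#1-4 and WT#20D-17, and squares are WT#20D-17 against WT#1-4. Dusp5 lies below 0 in all 4 comparisons with a Nox4-/- line, and the squares reach down to -1.53 for Etv4.

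Day by day, the genotypes separated for different genes. On day 0 both Nox4-/- lines were lower than both WT lines for Dusp5, Dusp6, Spry1 and Etv5, 4 of 10 beside 17.8% of all genes, and higher for Dusp4 (16.8%). On day 3 they were lower for Dusp5, Dusp6 and Spry1 (20.7%) and higher for Dusp4, Spry4, Etv4 and Etv5 (19.6%). On day 5 they were lower for Spry1 and Spry2 (21.1%), and on days 5 and 7 higher for Dusp4, Dusp6, Spry4, Etv4 and Etv5 (18.2% and 21.3%). Dusp5 was lower on days 7 and 14 (22.3% and 21.6%), and on day 14 Dusp6, Spry2, Etv4 and Etv5 were higher (23.3%). Dusp6 and Etv5 thus changed sides between day 0 and day 14.

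Whether the course over days differed by genotype was tested with an interaction term. None of the 10 genes passed, and 0.0104% of all genes did in edgeR's test over all days, 2 genes of 19240, with 1391 at an unadjusted p under 0.05 and 192 called by DESeq2. On day 14 alone, 0.0156% passed. The largest day 14 estimates were 2.82 ± 0.779 log2 units for Dusp6 (edgeR FDR 0.11), 2.19 ± 0.601 for Spry1 (0.109) and 1.88 ± 0.736 for Etv5 (0.211), all toward a smaller fall or a higher end value in the Nox4-/- lines. A p that misses the threshold here does not show that the courses were alike, since their intervals are wide. In simulated counts, 200 genes were changed on day 14 in the Nox4-/- lines by 1 or 2 log2 units. The tests over all days and of day 14 recovered 0 of the 200 each time. A miss was therefore not read as a lack of changes of that size. The simulated noise came from a fit of line and day alone. Real differences in course count as noise there, so the recovery may be too low. Without WT#1-4, which leaves WT#20D-17 as the single WT line, 6 of the 10 genes passed on day 14, beside 1709 of all genes, namely Dusp6, Spry1, Spry2, Spry4, Etv4 and Etv5.

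The other genes of the pathway were taken from lists and differed most between WT#20D-17 and the remaining lines. Among 7 FGF ligands, Fgf5, a ligand of primed pluripotent cells, fell by day 14 (log2 change -5.12 ± 1.21, edgeR FDR 0.00475). It was the 1 ligand called, beside 26.7% of all genes called and 13% lower. The Fgf5 call came from WT#20D-17, in which Fgf5 went from 94.9 to 1.63 CPM, since no library of another line exceeded 0.336 CPM. Fgf4, the main ligand of pluripotent cells, went from 93.4 to 2.26 CPM in WT#20D-17, and lay between 58.4 and 192 CPM in all libraries of the other lines.

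Of 5 FGF receptors none passed for day 14, beside 26.7% of all genes. Fgfr1 lay between 64.1 and 216 CPM. With 4 lines in the fit, Fgfr2 (-3.43 ± 0.26), Fgfr3 (-2.78 ± 0.43) and Fgfr4 were lower in the Nox4-/- lines (edgeR FDR at most 5.27e-05), 3 of 5 beside 19.2% of all genes. For Fgfr4 no fold is given, since it had at most 1 count in any Nox4-/- library. In WT#1-4 these 3 receptors were also low, at most 3.93 CPM, and they reached 76.0, 128 and 32.1 CPM in WT#20D-17.

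Among 19 genes of the cascade from adaptor to ERK, 4 rose by day 14 and none fell, beside 13.6% higher and 13% lower of all genes. Mapk3, which encodes ERK1, rose by 1.72 ± 0.23 log2 units (edgeR FDR 3.14e-05), Frs3, an FGF receptor adaptor, by 0.99 ± 0.26, and Map2k1, which encodes MEK1, by 0.68 ± 0.11. The median over the 19 was 0.11, beside 0.04 for all genes. In the exact test of the named lines, 3 of the 19 were lower in the Nox4-/- lines, among them Braf (-0.81) and Gab1 (-0.71, edgeR FDR at most 0.00284). No cascade gene was higher, and of all genes 3.97% were lower and 1.65% higher. Of 4 genes for Ras GTPase activating proteins, Rasa1 alone passed and fell by day 14 (-0.76 ± 0.17, edgeR FDR 0.00184), beside 26.7% of all genes called and 13% lower.

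Other transcripts that ERK is known to induce split in direction. Of 15 tested, the immediate early genes Ier3 (4.32 ± 0.37), Fos (3.09 ± 0.35) and Phlda1 (2.64 ± 0.42) rose by day 14 and Myc (-1.28 ± 0.21) fell (edgeR FDR at most 0.000172), beside 26.7% of all genes called. Viral and cellular reads of Myc cannot be told apart. Ier3 had 5.70 CPM on day 0 and 120 CPM on day 14 in WT#1-4, and in WT#20D-17 4.43 and 55.9 CPM. The same days gave 2.52 and 86.2 CPM in Nox4-/- #5-8 and 4.57 and 80.1 CPM in Nox4-/- #5-23. In the exact test of the named lines, Egr1 was lower (-1.62) and Epha2 higher (1.07) in the Nox4-/- lines (edgeR FDR at most 0.00611). Of all genes, 3.97% were lower and 1.65% higher.

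Of 7 other dual-specificity phosphatase genes, 3 rose by day 14, beside 13.6% of all genes. They were Dusp1 (2.87 ± 0.60), Dusp8 (2.63 ± 0.40) and Dusp10 (1.82 ± 0.42), which mainly act on the stress kinases JNK and p38 (edgeR FDR at most 0.00279). Dusp1 (-2.42) and Dusp10 (-1.78) were also lower in the Nox4-/- lines in the exact test (edgeR FDR at most 0.00187). That is 2 of 7, beside 3.97% of all genes lower. Dusp1 measured 271 CPM in WT#1-4 on day 14, against 28.7 and 30.9 CPM in the Nox4-/- lines, and 49.9 CPM in WT#20D-17. Il17rd (Sef), a membrane protein that also acts as a feedback inhibitor of FGF receptors, went from 235 to 41.1 CPM in WT#20D-17 and lay between 7.11 and 14.1 CPM in the libraries of the other lines.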

How the data were processed

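RNA-seq of 20 EB libraries was used, 1 for each of 4 iPSC lines on 5 days. The authors prepared stranded mRNA libraries, trimmed paired-end reads with fastx_toolkit, mapped them with STAR 2.6.0c to mm10 (GRCm38) and deposited gene-level expected counts from RSEM 1.3.1, without normalization. Reads that fit more than 1 gene are shared out by RSEM. Whether it used the strand is not given in the sources used here, so antisense overlaps are named. Gene symbols, coordinates and exon lengths came from GENCODE M21 (GRCm38), in which 55394 of 55573 gene identifiers were found. Promoter sequences came from RefSeq (GRCm38.p6), and windows of 7 of the 10 genes were searched.

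Expected counts were rounded before use. The software was DESeq2 1.42.0, limma 3.58.1 and edgeR 4.0.16 under R 4.3.3. Days were compared with edgeR's quasi-likelihood test after TMM scaling and edgeR's filter (19240 genes), with the line as a block. The genotypes were set against each other in edgeR's exact test over 33860 genes with a nonzero value in 1 library, as in the study's methods, in a fit of day and line over all 20 libraries, and on counts summed over days with the line as the unit. FDR values are Benjamini-Hochberg adjusted over all genes tested, and the threshold was 0.01. EBSeq-HMM, the study's tool for time courses, was not used here. Intervals of single libraries are 95% Wilson intervals, the floor was 3 counts, and both cover counting error only. Library totals were between 20294935 and 27707994 counts. The scripts were run on simulated counts with 200 genes changed by 1 log2 unit. The tests recovered 15 of them over any day, 22 for day 14, 42 between the WT lines and 0 for the interaction. The genotype tests recovered 100 (named lines), 120 (4 lines) and 61 (line as the unit). At 2 log2 units the numbers in the same order were 134, 135, 159 and 0, then 179, 183 and 161. A gene that was not called can thus still have changed. In the genotype simulations, all lines had the same mean for a gene before the change. Differences between lines of the same genotype were thus left out, and the genotype recoveries can be too high for the real lines.

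Libraries of 1 line share its clone, which is the pairing behind the line block. The difference between the WT lines correlated between days with a mean r of 0.749 (lowest 0.498), and that between the Nox4-/- lines with a mean r of 0.614 (lowest 0.383), as a description over 10868 genes. The days of 1 line do not replicate a genotype independently, and the p-values measure the spread within lines.

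The 10 genes and all lists (FGF ligands, receptors, cascade, Ras GTPase activating proteins, other ERK responsive transcripts, other dual-specificity phosphatases, and cell type markers) were chosen with earlier results of these data known. All 10 are named. From each pathway list, at most the 3 genes in each direction with the largest change past the threshold and a mean of at least 1 CPM are named, besides FGF receptors, Fgf4, Fgf5 and Il17rd. A further gene that this rule names is not reported here. Alternatives covered normalization, filter, tool, FDR, block, the wild type line, and leaving out each line or day. A DESeq2 Wald test of day 14 was added after seeing the data.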

Additional observations from a re-analysis of the deposited data

Results flagged for a closer look

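In 8 of 40 combinations of gene and day, both WT lines and both Nox4-/- lines moved in opposite directions from day 0, by the sign of each line's log2 ratio. On days 3, 5, 7 and 14 this was so for 1, 1, 2 and 4 of the 10 genes, beside 6.3%, 6.53%, 5.6% and 7.21% of all genes. In 7 of the 32 single-line ratios behind them the counting intervals of both libraries overlapped, among them both Nox4-/- lines for Spred1 on day 3 and Spred2 on day 14. The differences were not tested by sign. The interaction test of the report called none of them, but it also recovered none of the genes changed in simulated counts. For Dusp6 on day 14 the mean log2 ratio of the Nox4-/- lines exceeded that of the WT lines by 2.80, with 0.93 in the Nox4-/- lines and -1.87 in the WT lines (interaction FDR 0.11 from edgeR). For Spry1 the gap was 1.39 on day 7 (interaction FDR 0.817 from edgeR) and 2.42 on day 14 (edgeR FDR 0.109), with a mean of -1.17 in the WT lines on day 14 and of 1.26 in the Nox4-/- lines. For Etv5 it was 1.09 on day 5, 1.31 on day 7 and 2.06 on day 14, with interaction FDR values of 0.989, 0.852 and 0.211 from edgeR. The Spred genes had the smallest gaps, 0.25 for Spred1 on day 3 and 0.88 for Spred2 on day 14 (edgeR FDR 0.256). In the WT lines the Dusp6, Spred2 and Etv5 means on day 14 rest largely on WT#20D-17, in which the log2 ratios were -3.59, -1.38 and -3.57, against -0.15, -0.35 and -0.28 in WT#1-4. The same holds for Spry1 on day 14 (-1.90 against -0.44) and for Etv5 on day 5 (-1.44 against -0.37) and day 7 (-1.98 against -0.20). It does not hold for Spry1 on day 7 (-0.85 against -1.14) or Spred1 on day 3 (-0.17 against -0.19).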

How the results depend on the processing

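Genes called over any day numbered 1 in the reported fit, 2 at an FDR under 0.05, 0 with no replicate block, 2 with DESeq2's likelihood ratio test, and 0 to 2 when a line was left out. Genes called for day 14 numbered 3, and 1 to 3 when a line was left out, with 2 left with no replicate block (Dusp5 and Spry2). For genotype in the named lines, 0 genes were called, against 1 in the quasi-likelihood test with day as a replicate block (Dusp5), 6 with WT#20D-17 as the WT line, 2 with both WT lines and 0 to 1 when a Nox4-/- line was left out (Spry4, without #5-8). With 4 lines the count of 7 ran from 1 to 8 without 1 line, and was 5 with no replicate block. With the line as the unit, 0 became 1 with DESeq2, and 717 over all genes. For the interaction, 0 ran up to 3 over all days and to 6 on day 14 without 1 line, and stayed at 0 with no replicate block.

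Directions turned for genes that were not called in the reported fit, except Spred2, which was called with 4 lines and turned without WT#20D-17. In the named lines, Spred1 became 0.41 and Spred2 1.00 with WT#20D-17 as the WT line, 0.16 and 0.32 with both WT lines, Spred1 0.018 without day 0 and Spry2 0.084 without day 5. With a Nox4-/- line left out, Spry2 (-0.14 to 0.085), Spred1 (-0.11 to 0.032) and Spred2 (-0.27 to 0.0044) lay on both sides of 0. On day 14 the same held for Dusp4 (-0.090 to 0.47), Dusp6 (-1.03 to 0.57) and Spry1 (-0.38 to 0.63), with 4 lines for Spred1 (-0.045 to 0.47) and Spred2 (-0.15 to 1.05), and in the interaction for Dusp4 (-1.37 to 0.045), Dusp5 (-1.26 to 0.80), Spry2 (-0.11 to 1.70) and Spry4 (-0.17 to 3.37). Counts over all genes depended on the same settings. The 3163 genes called over any day became 5304 at an FDR under 0.05, 994 with no replicate block, 5095 with DESeq2 and 610 to 4002 without 1 line. The 5133 of day 14 became 7894, 2413 with no replicate block and 2479 to 5830 without 1 line. The 1903 of the named lines became 1221 at an FDR under 0.001, 1228 in the quasi-likelihood test without day, 8751 with WT#20D-17 alone, 4101 with both WT lines, 1267 without day 5 and 1114 without day 7. The 7026 with 4 lines became 3226 to 9259 without 1 line, the 638 between the Nox4-/- lines 1387 with DESeq2, and the 2 interaction genes 0 with no replicate block, 11 without the filter and 192 with DESeq2. Beyond such lost lines and blocks, the cause was not tested.

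With 1 library per line and day, no day of a line has an error of its own, and the depth limits low genes such as Dusp5 (30 counts in its lowest library) more than Etv5. The 40 single-line day 14 ratios were recomputed under each of 2 other scalings. Of the recomputed values, 64 lay within the counting interval of the ratio and 16 beyond it.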
